A study of Mus musculus with 10 samples.

Results

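The creatine and calcium futile cycles are represented here by 10 genes, and chromatin accessibility around them was measured in adipocytes under forskolin or rosiglitazone. They were Gatm, Gamt, Slc6a8, Ckb, Ckmt2 and Alpl for creatine and Atp2a1, Atp2a2, Ryr1 and Ryr2 for calcium. A peak of the count table was taken as theirs if it overlapped the RefSeq GRCm38 bounds of the gene by at least 1 bp, or if it lay outside protein-coding genes with the gene as the nearest one within 50 kb. This gave 61 of the 122984 peaks, 30 at creatine genes and 31 at calcium genes, and 54 of the 61 passed the filter on low counts. Of the 10 genes, 8 had at least 1 peak.

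The assay was ATAC-seq, in which a transposase cuts and tags open DNA. The 10 libraries came from MAP cells, 1 immortalized line of mouse adipocyte progenitors, differentiated to adipocytes. They formed 5 groups of 2 libraries. The treated groups had forskolin for 4 hours (S3, S4), forskolin for 1 day (S5, S6), forskolin for 3 days (S7, S8) or rosiglitazone for 3 days (S9, S10), and the control group had vehicle (S1, S2). Forskolin activates adenylyl cyclase and raises cAMP, the messenger of adrenergic signals, and rosiglitazone activates the nuclear receptor PPARγ; per the labels both served to brown the fully differentiated cells. All groups, control included, had been differentiated with insulin, isobutylmethylxanthine, dexamethasone and rosiglitazone, so the control cells had also met rosiglitazone before. Nuclei were sorted on a DNA dye. No label says that the paired libraries stem from separate cultures, so the p-values measure only the spread between these libraries, which may be technical.

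In a futile cycle, opposing reactions spend ATP with no net product and the energy is released as heat. In the creatine cycle of thermogenic fat, creatine made by Gatm and Gamt or imported by Slc6a8 is phosphorylated by a creatine kinase, Ckb in brown and beige fat of mice, and phosphocreatine is hydrolysed again by the phosphatase Alpl. In the calcium cycle, a SERCA pump (Atp2a1, Atp2a2) spends ATP to load calcium into the endoplasmic reticulum, and a ryanodine receptor (Ryr1, Ryr2) lets it flow back. SERCA2b with Ryr2 is the pair described for mouse beige fat, while Atp2a1 and Ryr1 are best known from skeletal muscle. Accessibility at these loci is not a measure of their RNA or protein.

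Start sites were the first place to look for open chromatin at these genes. RefSeq (GRCm38.p6) gave 9 windows of 300 bases, from 250 before to 50 after a start, for 8 of the genes, with 2 starts for Alpl. A peak overlapped 3 of the 9 windows. All 9 lie on the minus strand. The 5 below carry the contrast between starts with and without a peak. The windows of the upstream Alpl start (chr4:137796335-137796634), of Gamt (chr10:80260963-80261262) and of Ryr2 (chr13:12106896-12107195) held a peak. The window of the downstream Alpl start (chr4:137766426-137766725) held none, although the Alpl peaks with the largest called rises under forskolin lay near it, and the window of Ckb (chr12:111672289-111672588) held none either. Capitals mark a motif match.
Alpl upstream start: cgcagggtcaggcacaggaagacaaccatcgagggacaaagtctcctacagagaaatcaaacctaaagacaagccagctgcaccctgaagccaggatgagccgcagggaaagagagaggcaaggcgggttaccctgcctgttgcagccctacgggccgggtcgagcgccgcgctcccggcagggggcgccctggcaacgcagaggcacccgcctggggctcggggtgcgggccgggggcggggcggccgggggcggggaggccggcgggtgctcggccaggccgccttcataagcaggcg
Alpl downstream start: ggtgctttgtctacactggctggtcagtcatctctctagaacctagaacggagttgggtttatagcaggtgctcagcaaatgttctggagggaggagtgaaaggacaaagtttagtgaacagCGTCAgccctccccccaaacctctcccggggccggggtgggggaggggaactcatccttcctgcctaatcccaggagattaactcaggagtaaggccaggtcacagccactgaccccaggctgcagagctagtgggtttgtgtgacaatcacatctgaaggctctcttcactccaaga
Gamt start: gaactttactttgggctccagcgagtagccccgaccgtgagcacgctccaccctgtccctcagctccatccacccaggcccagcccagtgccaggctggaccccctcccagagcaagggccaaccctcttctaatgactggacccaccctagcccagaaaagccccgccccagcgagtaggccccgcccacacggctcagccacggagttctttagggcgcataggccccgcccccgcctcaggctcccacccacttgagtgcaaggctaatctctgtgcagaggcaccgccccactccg
Ryr2 start: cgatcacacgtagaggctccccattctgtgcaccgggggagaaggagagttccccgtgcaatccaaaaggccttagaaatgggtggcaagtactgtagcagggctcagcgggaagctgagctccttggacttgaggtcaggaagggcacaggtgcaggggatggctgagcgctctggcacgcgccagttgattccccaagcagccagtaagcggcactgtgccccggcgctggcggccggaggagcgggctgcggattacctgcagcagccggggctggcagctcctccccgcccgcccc
Ckb start: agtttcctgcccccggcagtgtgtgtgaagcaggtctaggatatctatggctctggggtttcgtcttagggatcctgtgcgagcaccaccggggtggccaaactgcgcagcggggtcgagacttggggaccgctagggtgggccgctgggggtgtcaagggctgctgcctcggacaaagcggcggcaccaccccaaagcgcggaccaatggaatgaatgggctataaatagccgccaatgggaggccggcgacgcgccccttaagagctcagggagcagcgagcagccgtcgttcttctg

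A set of short motifs was searched on both strands of these windows. The cAMP response element TGACGTCA was in 0 of the 9 windows of the member genes and in 1.79% of all 32851 promoter windows of the table. Its shorter form TGACG, which is also part of the full element, was in 1 of the 9 and in 20.8% of all windows; the match is the capital run at bases -128 to -124 of the downstream Alpl start, read on the opposite strand. The C/EBP motif TTGCNNAA was in 1 of the 9, at bases -70 to -63 of the Ryr1 start, and in 10.8% of all windows. The AP-1 motif TGANTCA and the PPAR element, a direct repeat of AGGTCA with any 1 base between, were in 0 of the 9, against 7.81% and 0.0396% of all windows. Guanine and cytosine made up 70.0% of the bases at the upstream Alpl start, 54.3% at the downstream one, 66.0% at Gamt, 65.3% at Ryr2 and 63.0% at Ckb. The upstream Alpl window held 26 CpG pairs, the Ryr2 window 18 and the Gamt window 14, while the Ckb window, with no peak, held 22.

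Each library held between 10410233 and 18935287 counts in peaks. Levels are counts scaled to library size, in the usual CPM unit, after TMM scaling, which sets the bulk of peaks equal between libraries, and a change was called at an adjusted p below 0.05. The biological coefficient of variation was 0.163 over peaks and 0.0644 over genes. All 10 adipocyte markers listed (Adipoq, Fabp4, Plin1, Pparg and others) and all 6 brown or beige markers had peaks. Of these 6, Ucp1 and Ppargc1a were called higher at each forskolin time and, with Elovl3, under rosiglitazone; Cidea, Dio2 and Cox7a1 were not called in these contrasts. The brown or beige list summed to 372.3 and 376.4 CPM at 4 hours of forskolin, 363.0 and 376.8 CPM at 1 day, 351.8 and 364.9 CPM at 3 days and 383.3 and 384.5 CPM with rosiglitazone, against 284.9 and 308.5 CPM in control; most of it was Ppargc1a, which averaged 303.9, 300.2, 286.1 and 294.7 CPM in that order, against 229.9 CPM in control. Summed over all peaks of a gene, the median gene shifted by -0.13 (log2) at 4 hours, -0.15 at 1 day, -0.11 at 3 days and -0.06 with rosiglitazone, so changes of genes are to be read relative to these shifts. Of all genes called, 31.6%, 21.8%, 31.0% and 29.7% were higher at those contrasts, against 58.2%, 56.7%, 68.9% and 51.6% with offsets that follow a trend over abundance, and 53.3%, 55.2%, 66.1% and 70.7% when scaled by library size alone. For peaks the same shares were 58.8%, 56.8%, 61.4% and 49.1%, against 68.9%, 75.9%, 75.6% and 68.6% when scaled by library size alone. The median peak then shifted by 0.096, 0.192, 0.114 and 0.097 at these contrasts. Leaving out S2, a control library, ended 24 of the 62 calls on named genes and peaks. The 62 include calls between treatments and between forskolin times, which leaving out S2 could not end because only contrasts with control were refitted.

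Forskolin changed accessibility at member peaks in both directions; more nuclei with a site open and wider opening in each nucleus cannot be told apart in bulk libraries. At 4 hours 21 of the 54 tested member peaks were called, 13 higher and 8 lower, a share of 38.9% against 31.4% of all peaks tested, of which 18.5% were higher and 12.9% lower. At 1 day 16 were called (29.6%), 11 higher and 5 lower, against 22.8% of all peaks (12.9% higher, 9.84% lower), and at 3 days 14 (25.9%), 9 higher and 5 lower, against 13.8% (8.49% higher, 5.34% lower). With library size alone the splits were 17 higher and 6 lower, 14 and 3, and 9 and 3. Rosiglitazone moved fewer: 4 member peaks were called (7.41%), 2 higher and 2 lower, against 6.57% of all peaks (3.22% higher, 3.35% lower). The median log2 fold change of the tested member peaks was 0.19 at 4 hours, 0.11 at 1 day, 0.12 at 3 days and 0.03 with rosiglitazone, beside medians of 0.00, 0.04, 0.01 and 0.00 over all peaks tested. The count at 3 days was the least stable, with 4 calls by DESeq2 and 5 without either control library or without S7.

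**Figure D1:**
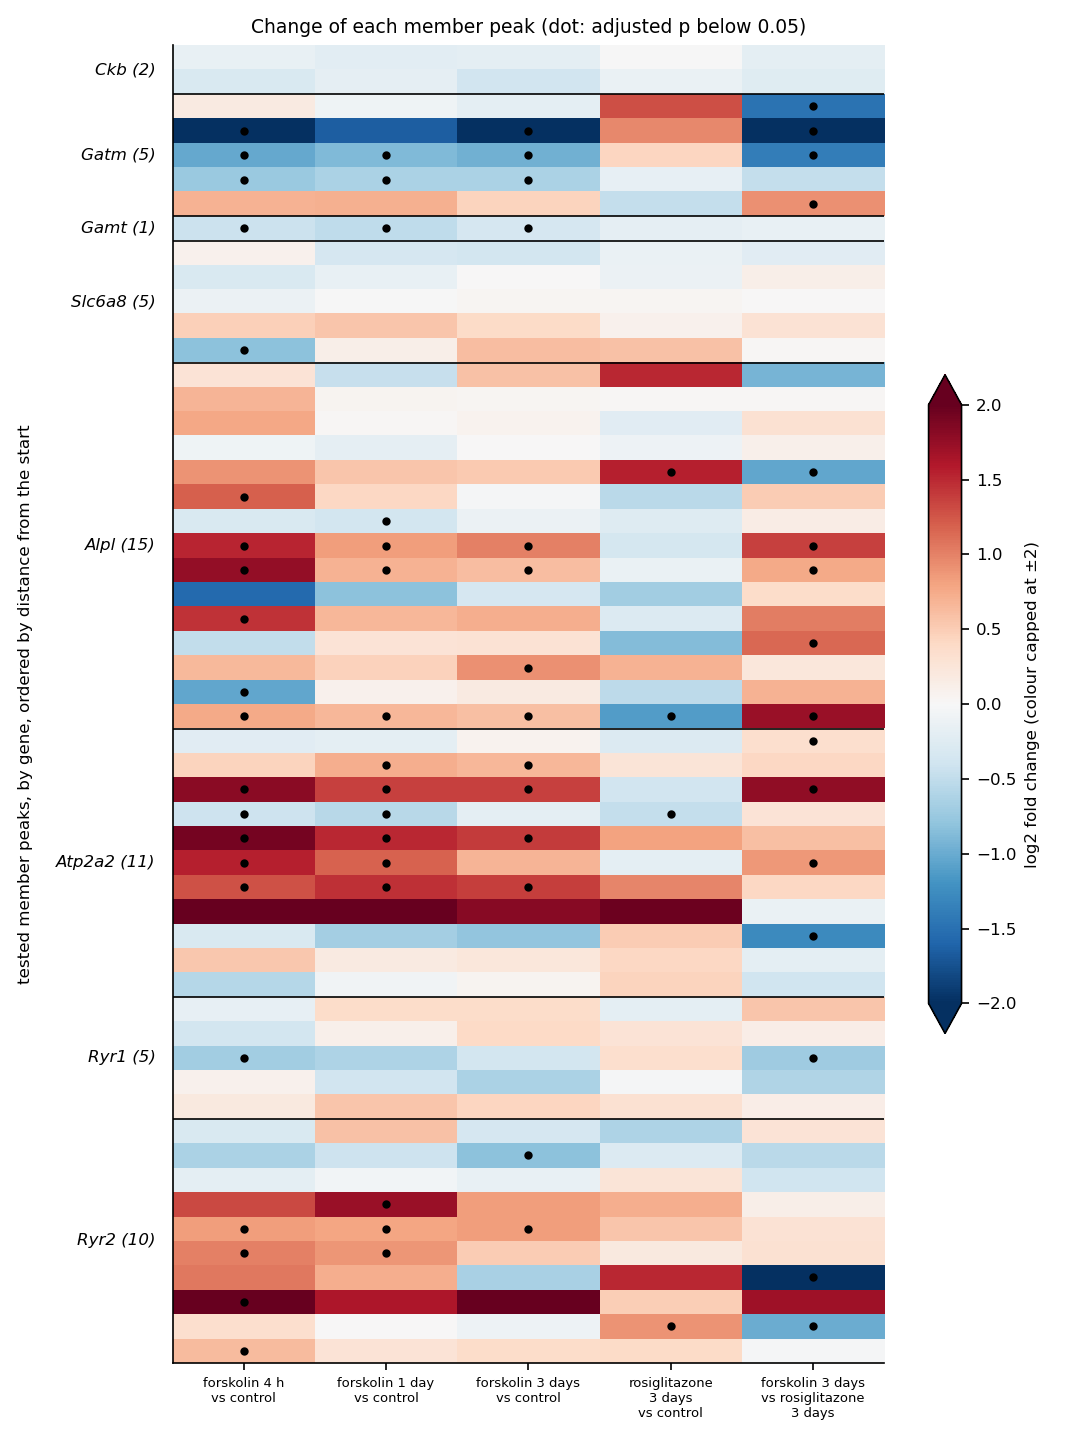
Log2 fold change (colour) of the 54 tested member peaks (rows, grouped by gene and ordered from the start inward, with upstream peaks on top) in 5 comparisons (columns); a dot marks an adjusted p below 0.05. Red rows at Alpl, Atp2a2 and Ryr2 and blue rows at Gatm run across the 3 forskolin columns, while the rosiglitazone column holds 4 dots.

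Of the 26 peaks called in at least 1 forskolin contrast (48.1% of the member peaks, beside 39.0% of all peaks tested), 16 were higher and 10 lower. These were 29.6% and 18.5% of the member peaks, beside 21.8% and 17.2% of all peaks tested. At all 3 times 7 peaks (13.0%, beside 6.14% of all) were higher, 3 at Alpl, 3 at Atp2a2 and 1 at Ryr2. At all 3 times 3 peaks (5.56%, beside 3.06% of all) were lower, 2 at Gatm and 1 at Gamt. A further 7 (13.0%, beside 13.1% of all) were called at 4 hours only. Peaks at gene ends and other peaks were counted apart. Of the 8 tested peaks at a start window or within 1 kb of a gene end, 3 were called at 4 hours, 2 at 1 day, 1 at 3 days and 1 with rosiglitazone, all lower. Of all 17263 tested peaks at such places 23.4%, 28.8%, 6.97% and 3.74% were lower in these contrasts and 5.42%, 3.76%, 2.64% and 1.53% higher. Of the other 46 member peaks, 13 were higher and 5 lower at 4 hours, beside 20.7% higher and 11.2% lower of all other peaks. The median change at 4 hours was -0.25 for those 8 and 0.46 for the other 46, beside -0.22 and 0.09 over all peaks of each kind. These are counts and not a test of the difference between the kinds of peak.

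Both genes of creatine synthesis, Gatm and Gamt, were called lower with forskolin in the fit of genes, Gatm through peaks far from it and Gamt through a peak it shares. Gatm, the amidinotransferase that makes the creatine precursor guanidinoacetate, had 6 peaks, 1 inside the gene and 5 beyond its far end at 11433 to 24605 bp. Their summed level was 21.7 and 22.4 CPM in control, 16.2 and 14.2 CPM at 4 hours, 17.0 and 15.0 CPM at 1 day and 14.6 and 15.1 CPM at 3 days. All 6 forskolin libraries lay below both control libraries. The log2 fold changes were -0.54 ± 0.128 (SE, adjusted p = 0.00335) at 4 hours, -0.46 ± 0.125 (adjusted p = 0.00669) at 1 day and -0.57 ± 0.129 (adjusted p = 0.0068) at 3 days. With rosiglitazone the libraries had 25.9 and 26.6 CPM, above both control libraries, but the change of 0.25 ± 0.122 was not called (adjusted p = 0.221). The 1-day call was lost with library size alone (-0.31, adjusted p = 0.0725) and without S2 (0.0649) or S6 (0.07), and the 3-day call without S2 (0.0786).

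The Gatm change rested on the distal peaks, which lie in a long noncoding RNA gene, Gm34325. The peak at chr2:122581255-122582058, 12415 bp beyond the gene, had 7.17 and 7.68 CPM in control, 3.55 and 3.74 CPM at 4 hours, 4.69 and 3.36 CPM at 1 day and 3.66 and 4.04 CPM at 3 days. It fell by 1.03 ± 0.239 (log2, adjusted p = 0.000497), 0.89 ± 0.232 (0.00282) and 0.96 ± 0.24 (0.00318) at the 3 times, and between 3 days and 4 hours it differed by 0.07 ± 0.251 (adjusted p = 0.905). It had 9.91 and 10.1 CPM with rosiglitazone, where the change of 0.43 ± 0.216 was not called (adjusted p = 0.243). The 1-day call was lost without S6 (-0.66, adjusted p = 0.1) and the 3-day call without S7 (adjusted p = 0.0533).

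A second Gatm peak at chr2:122575473-122575877, 18596 bp out and the one with the most reads, had 9.09 and 10.2 CPM in control, 6.44 and 5.07 CPM at 4 hours, 6.43 and 5.96 CPM at 1 day and 5.66 and 6.8 CPM at 3 days. It fell by 0.75 ± 0.209 (adjusted p = 0.00373), 0.64 ± 0.203 (0.0153) and 0.64 ± 0.209 (0.0286). Without S2 none of the 3 calls held (adjusted p = 0.0611, 0.15 and 0.203), and the 4-hour call was also lost without S4 (0.0855), the 1-day call without S5 (0.061) or S6 (0.109) and the 3-day call without S1 (0.0525) or S7 (0.244). With library size alone the 1-day and 3-day calls did not hold (0.0884 and 0.0844), nor did the 3-day call by DESeq2 (0.0748). A neighbouring peak, chr2:122582706-122583040, was chosen after its values were seen. It had 2 and 2 counts at 4 hours and 4 and 0 at 3 days, against 16 and 8 in control, and both calls were lower (adjusted p = 0.00423 and 0.0121). At 1 day it had 9 and 4 counts and was not called. It had 30 and 37 counts with rosiglitazone. The distal peak chr2:122572315-122572683 ran the other way, with 2.22 and 2.56 CPM in control, 3.81 and 3.92 CPM at 4 hours, 3.58 and 4.28 CPM at 1 day and 3.95 and 2.45 CPM at 3 days, and none of its changes against control was called (0.69 ± 0.323, 0.71 ± 0.318 and 0.44 ± 0.33, adjusted p = 0.0947, 0.0973 and 0.414). If only peaks within 10 kb of a gene are used, or if noncoding genes also count as genes, these distal peaks leave Gatm and its summed change becomes 0.18 at 4 hours (adjusted p = 0.788), -0.09 at 1 day (0.892) and -0.21 at 3 days (0.793 and 0.796).

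Gamt, the methyltransferase that completes creatine, had 1 peak, chr10:80260754-80261959, on its start window printed above. The peak also overlaps Dazap1, the neighbouring gene, so its signal cannot be given to one of the genes. It had 210.0 and 220.1 CPM in control, 160.2 and 159.9 CPM at 4 hours, 144.0 and 158.0 CPM at 1 day and 164.0 and 177.4 CPM at 3 days, and all 6 forskolin libraries were below control. In the fit of peaks it fell by 0.43 ± 0.111 (adjusted p = 0.00193), 0.51 ± 0.111 (0.000358) and 0.33 ± 0.111 (0.0323). With offsets that follow a trend over abundance the changes of this peak were -0.01 (adjusted p = 0.94), 0.04 (0.748) and -0.02 (0.912). In the fit of genes, where the same counts stand for Gamt, the adjusted p were 5.53e-05, 2.02e-05 and 0.00238 and the first 2 calls held under all 12 alternatives. The alternatives of assignment and of promoter peaks leave the counts of this 1 peak unchanged. On the same counts the standard error at 4 hours was 0.0643 in the fit of genes and 0.111 in the fit of peaks. With rosiglitazone the peak had 191.1 and 188.6 CPM, a change of -0.18 ± 0.111 that was not called (adjusted p = 0.366). The 3-day call of the peak was lost without S1, S2 or S7 (adjusted p = 0.094, 0.215 and 0.0684) and that of the gene without S2 (0.0529), and with only the 2 groups both were lost (0.25 and 0.0538).

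Creatine import showed no called change of the locus as a whole. Slc6a8, the creatine transporter, had 5 peaks that summed to 40.2 and 34.3 CPM in control, 31.3 and 35.9 CPM at 4 hours, 36.1 and 37.6 CPM at 1 day and 36.6 and 42.9 CPM at 3 days. Rosiglitazone libraries had 37.9 and 37.1 CPM. The groups overlapped, and changes of -0.14, -0.01, 0.09 and 0.01 (adjusted p = 0.327, 0.949, 0.585 and 0.952) were not called. The peak with the most reads, chrX:73672819-73673583, on the lower-coordinate end of the gene, had a log2 fold change of -0.30 ± 0.157 at 4 hours (adjusted p = 0.135, or -0.52 and 0.0419 without S4). Just outside that end, chrX:73672248-73672393 had 2.45 to 3.68 CPM over all libraries and was not called in any comparison.

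At the other end of Slc6a8 the peak chrX:73682081-73682423 had 3.33 and 3.3 CPM in control, 1.38 and 2.35 CPM at 4 hours, 3.24 and 3.92 CPM at 1 day and 5.01 and 5.14 CPM at 3 days. It was low at 4 hours and higher at 3 days than at 4 hours in every library. The fall at 4 hours was 0.82 ± 0.321 (adjusted p = 0.0433), and it was lost without S1, S2 or S3 (adjusted p = 0.113, 0.139 and 0.377), by DESeq2 (0.0912), with library size alone (0.0882) and with only the 2 groups (0.0716). The difference between 3 days and 4 hours was 1.43 ± 0.294 (adjusted p = 0.000341), or 0.0503 without S3, and that between 1 day and 4 hours was 0.93 ± 0.298 (adjusted p = 0.0473), lost without S3, S5 or S6 (0.462, 0.107 and 0.318) and by DESeq2 (0.151). A further peak, chrX:73675320-73675531, had a log2 fold change of 0.55 ± 0.244 at 1 day (adjusted p = 0.0964). Without S1 it was called at 4 hours (0.95, adjusted p = 0.0189) and 1 day (1.02, 0.0157), while without S2 the changes were 0.09 (0.863) and 0.16 (0.784); the control libraries had 5.85 CPM (S1) and 3.22 CPM (S2).

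Of the kinases of the cycle, Ckb showed no called change, and Ckmt2, which had no peak, could not be tested. Ckb, the cytosolic creatine kinase of brown and beige fat, had 2 peaks that summed to 29.2 and 37.2 CPM in control, 29.5 and 29.7 CPM at 4 hours, 28.3 and 29.5 CPM at 1 day and 27.4 and 30.0 CPM at 3 days. Rosiglitazone libraries had 30.3 and 35.2 CPM. The changes were -0.17 ± 0.119, -0.20 ± 0.118, -0.22 ± 0.121 and -0.02 ± 0.119, and none was called (adjusted p = 0.264, 0.177, 0.211 and 0.931). Without S1, the lower of the control libraries there, the wider gap of -0.36 at 1 day was called (adjusted p = 0.0438), and without S2 the change was -0.01 (0.962). Its main peak, chr12:111668292-111669642, covers the 3′ end of the gene, 2.65 kb from the start window printed above, and the other, chr12:111665137-111665323, lies 4032 bp beyond it. Ckmt2, the mitochondrial kinase of striated muscle, had no peak inside chr13:91853386-91876923 or assigned to it, and the nearest peak lay 11.7 kb away in Rasgrf2.

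The phosphatase gene of the cycle was called higher at 4 hours of forskolin. Alpl, the tissue-nonspecific alkaline phosphatase, had the most peaks of the 10 genes, 16, of which 15 were tested. They summed to 65.3 and 77.1 CPM in control, 95.7 and 97.2 CPM at 4 hours, 74.4 and 82.3 CPM at 1 day and 85.1 and 83.6 CPM at 3 days. Both 4-hour libraries and both 3-day libraries were above control, and 1 of the 1-day libraries fell within the control range. The change was 0.43 ± 0.0898 at 4 hours (adjusted p = 0.00113) and was not called at 1 day (0.14 ± 0.0899, adjusted p = 0.239) or 3 days (0.24 ± 0.0905, adjusted p = 0.0731). With trended offsets the 1-day and 3-day changes were called, at 0.34 (adjusted p = 0.00135) and 0.37 (0.00134), as they were with library size alone, at 0.29 (0.00655) and 0.34 (0.00405). Without S8 the 3-day change was called too (0.25, adjusted p = 0.0373). With rosiglitazone the gene had 63.4 and 62.8 CPM, a change of -0.18 ± 0.0916 (adjusted p = 0.248).

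**Figure D2:**
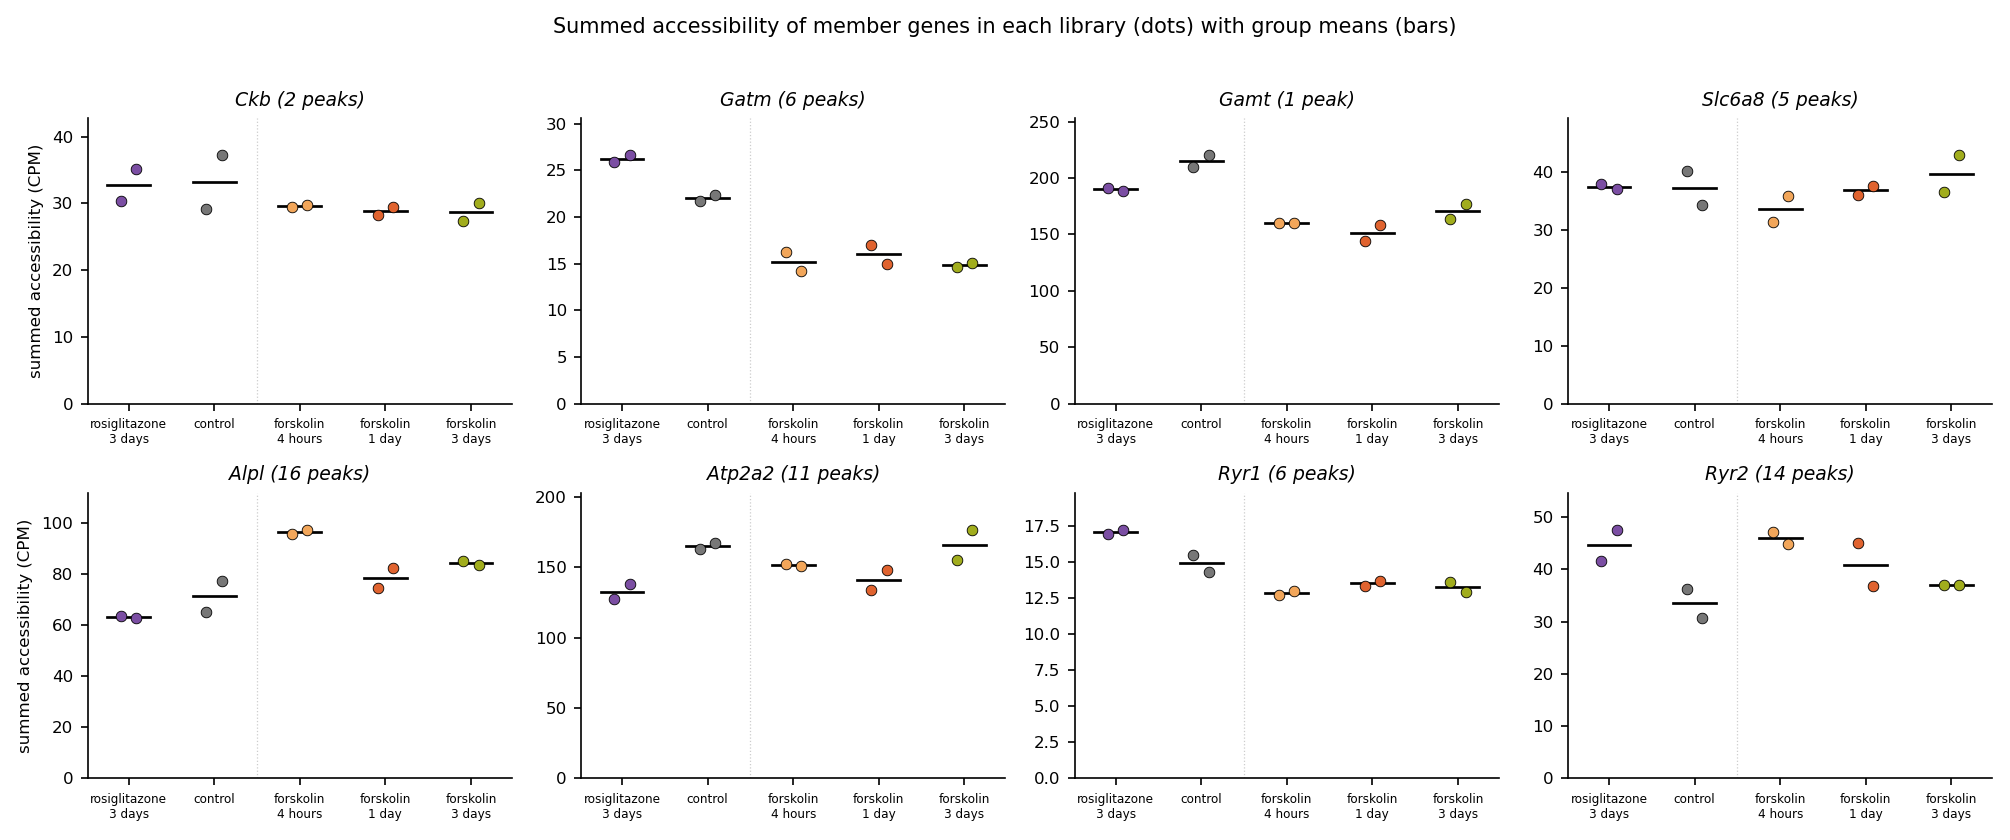
Summed accessibility in CPM (vertical axis from 0) of the 8 member genes with peaks, by group (horizontal axis); each dot is 1 library and each bar a group mean. Gatm and Gamt libraries under forskolin all sit below the control libraries, and the 4-hour Alpl libraries, at 95.7 and 97.2 CPM, sit above them.

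The largest called rises at Alpl under forskolin lay in a pair of peaks between its 2 starts, 3.14 and 4.4 kb upstream of the downstream start. The first, chr4:137769617-137770166, had 5.25 and 5.2 CPM in control, 18.7 and 16.5 CPM at 4 hours, 8.72 and 8.3 CPM at 1 day and 8.2 and 7.83 CPM at 3 days. Every forskolin library was above control and both 4-hour libraries were above all later ones. It was higher by 1.75 ± 0.195 at 4 hours (adjusted p = 1.58e-11), the smallest adjusted p of any member peak against control, and held there under all 9 alternatives. At 1 day it was higher by 0.70 ± 0.204 (adjusted p = 0.00766, or 0.0689 without S2 and 0.0609 without S5) and at 3 days by 0.62 ± 0.21 (0.0354, lost without any 1 of S1, S2, S7 and S8, at 0.055 to 0.162, by DESeq2 at 0.103 and with only the 2 groups at 0.0838). It was lower at 1 day than at 4 hours by 1.05 ± 0.17 (adjusted p = 1.65e-05) and at 3 days than at 4 hours by 1.13 ± 0.176 (2.26e-06). Under rosiglitazone the peak had 4.06 and 5.37 CPM, a change of -0.14 ± 0.223 (adjusted p = 0.78).

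Its neighbour chr4:137770876-137771361 had 3.63 and 2.89 CPM in control, 7.69 and 11.0 CPM at 4 hours, 5.53 and 6.06 CPM at 1 day and 6.78 and 6.25 CPM at 3 days. It too was above control in every forskolin library, by 1.53 ± 0.249 (adjusted p = 9.31e-07), 0.84 ± 0.257 (0.0115) and 1.01 ± 0.259 (0.00385). The later calls were lost without S2 (adjusted p = 0.167 and 0.0989), and the 1-day call also without S6 (0.0799) and by DESeq2 (0.053). The drop between 4 hours and 1 day was 0.69 ± 0.214 (adjusted p = 0.038) and was lost without S4, S5 or S6 (0.515, 0.265 and 0.159), by DESeq2 (0.136) and when scaled by library size alone (0.0774). With rosiglitazone it had 2.82 and 2.28 CPM, a change of -0.35 ± 0.291 (adjusted p = 0.538).

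Other Alpl peaks, chosen after their values were seen unless said otherwise, moved in different ways. A peak 5640 bp beyond the 3′ end, chr4:137735557-137736091, was above control in all 6 forskolin libraries (9.26 to 11.6 CPM, against 5.85 and 6.61 CPM) and below it in both rosiglitazone libraries (3.44 and 2.35 CPM). Its changes were 0.76 ± 0.205 at 4 hours (adjusted p = 0.00272), 0.67 ± 0.204 at 1 day (0.0115) and 0.60 ± 0.208 at 3 days (0.0408), and -1.12 ± 0.242 with rosiglitazone (0.00118). A peak at chr4:137788349-137788773 had 9.27 and 7.97 CPM at 4 hours, against 4.04 and 3.47 CPM in control, a rise of 1.2 ± 0.25 (adjusted p = 9.55e-05), and was not called at later times. A peak at chr4:137794250-137794537, 1.85 kb inside the upstream start, had 4.47 and 4.07 CPM with rosiglitazone, against 1.21 and 1.65 CPM in control, a rise of 1.56 ± 0.36 (adjusted p = 0.00266).

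Alpl peaks that fell were fewer. The peak chr4:137744577-137744896 had 1.45 and 2.17 CPM at 4 hours, against 3.23 and 4.21 CPM in control, a fall of 1.04 ± 0.326 (adjusted p = 0.0101), and was higher again at 3 days than at 4 hours by 1.21 ± 0.311 (0.00483). By the naming rule the peak with the most reads was chr4:137783643-137784346, and it had 20.6 and 22.2 CPM at 1 day, against 24.4 and 30.5 CPM in control. That fall of 0.36 ± 0.132 (adjusted p = 0.0349) was lost under 6 of 9 alternatives, with -0.19 (adjusted p = 0.504) without S2, -0.31 (0.223) without S5 and -0.42 (0.0799) without S6. The peak on the upstream start window, chr4:137795960-137796678, had 6.66 and 8.67 CPM in control, 6.25 and 8.33 CPM at 4 hours, 6.26 and 7.33 CPM at 1 day and 7.49 and 7.99 CPM at 3 days, and changes of -0.08 ± 0.224, -0.18 ± 0.222 and 0.00 ± 0.226 were not called. With promoter peaks only, the 4-hour change of Alpl was therefore -0.08 (adjusted p = 0.809).

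**Figure D3:**
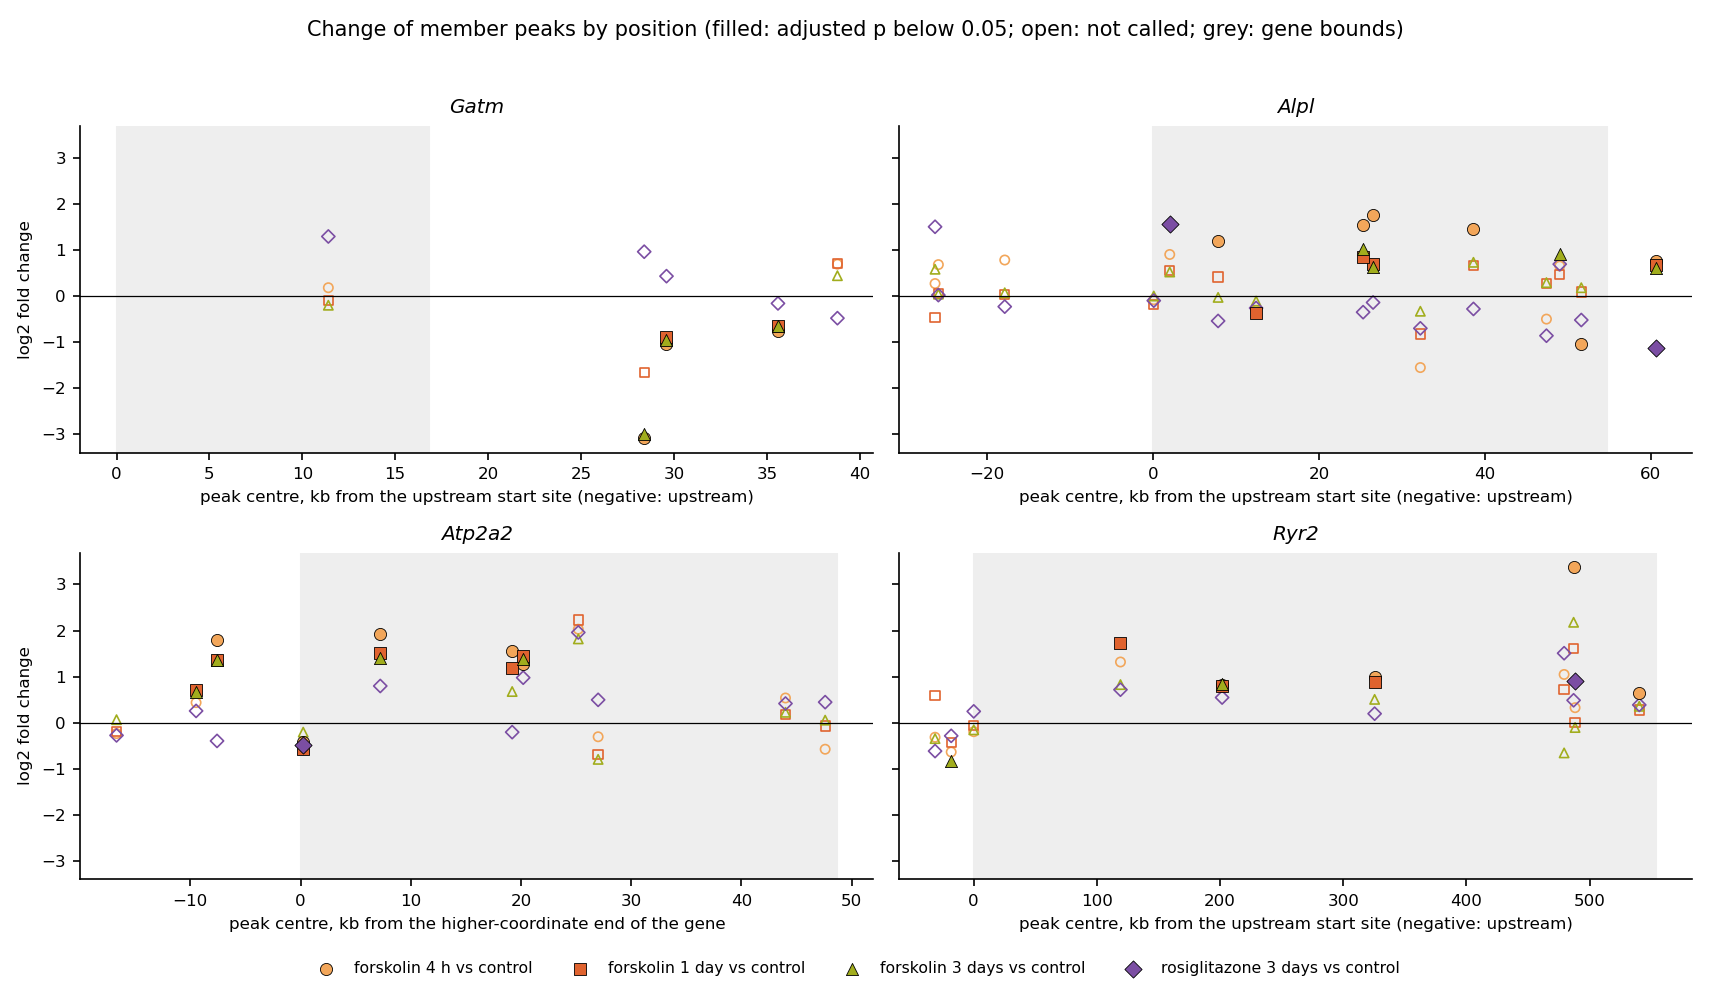
Log2 fold change against control (vertical axis) of the tested peaks of Gatm, Alpl, Atp2a2 and Ryr2 by distance of the peak centre in kb from the upstream start, or for Atp2a2 from the higher-coordinate end of the gene; filled symbols have an adjusted p below 0.05, and the gene bounds are grey. Filled forskolin symbols at Alpl cluster above 0 around 25.3 and 26.5 kb, and at Gatm they lie below 0 beyond the gene.

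On the calcium side, Atp2a2 peaks moved against each other. Atp2a2 encodes SERCA2, the pump that fills the store in non-muscle cells and the heart, and had 11 peaks, all tested. They summed to 162.8 and 167.3 CPM in control, 152.1 and 150.8 CPM at 4 hours, 133.6 and 148.1 CPM at 1 day and 155.2 and 176.6 CPM at 3 days. The sum was lower than control by 0.23 ± 0.0737 at 1 day (adjusted p = 0.0184) and did not pass at 4 hours (-0.13 ± 0.0739, adjusted p = 0.189) or 3 days (0.01 ± 0.0739, adjusted p = 0.969). With rosiglitazone it was 127.7 and 138.0 CPM, lower than both control libraries by 0.31 ± 0.0743 (adjusted p = 0.0144). The 1-day call was lost with library size alone (-0.08, adjusted p = 0.38), with trended offsets (-0.06, 0.498) and without S2 (-0.21, 0.124) or S5 (-0.16, 0.226). The rosiglitazone call was lost without S1, S2 or S9 (adjusted p = 0.0641, 0.149 and 0.22).

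The sum was dominated by 1 peak, chr5:122501178-122502791, on the higher-coordinate end of the gene. It had 108.7 and 108.5 CPM in control, 81.3 and 82.0 CPM at 4 hours, 66.0 and 81.0 CPM at 1 day and 82.0 and 108.2 CPM at 3 days, so the 3-day libraries differed between themselves by most of the change seen at other times. It fell by 0.41 ± 0.121 at 4 hours (adjusted p = 0.00595) and 0.56 ± 0.121 at 1 day (0.000281), and at 3 days the change of -0.20 ± 0.121 was not called (0.298), though without S8 it was (-0.41, 0.00675). With rosiglitazone it had 71.4 and 84.9 CPM, a fall of 0.47 ± 0.121 (adjusted p = 0.00756). With trended offsets the forskolin changes were -0.11 (adjusted p = 0.327) and -0.17 (0.141). Leaving out S3 at 4 hours (0.0654), S5 at 1 day (0.0591) or S1, S2 or S9 for rosiglitazone (0.0669, 0.0659 and 0.23) also ended the calls.

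Several peaks away from that end rose with forskolin. Outside the gene, 7421 bp beyond the same end, chr5:122509646-122509968 had 2.83 and 2.81 CPM in control, 9.53 and 10.1 CPM at 4 hours, 7.66 and 6.98 CPM at 1 day and 7.26 and 7.36 CPM at 3 days. All 6 forskolin libraries were above both control libraries, with at least 6.98 CPM. The rises of 1.80 ± 0.244 (adjusted p = 8.78e-09), 1.37 ± 0.248 (1.72e-05) and 1.37 ± 0.253 (4.27e-05) held under all 9 alternatives each. With rosiglitazone it had 1.86 and 2.41 CPM, a change of -0.39 ± 0.296 (adjusted p = 0.482). When noncoding genes also decide which gene is nearest, this peak is no longer Atp2a2's, so its tie to Atp2a2 depends on the annotation.

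Inside Atp2a2, chr5:122482751-122483282 had 2.32 and 2.89 CPM in control, 8.22 and 7.31 CPM at 4 hours, 6.26 and 5.7 CPM at 1 day and 4.95 and 3.32 CPM at 3 days. The level lay highest at 4 hours, with rises of 1.56 ± 0.277 at 4 hours (adjusted p = 5.63e-06) and 1.18 ± 0.28 at 1 day (0.000959), both kept under all 9 alternatives, and a change of 0.68 ± 0.296 at 3 days that was not called (0.118, or 0.0451 without S8). At 3 days it was lower than at 4 hours by 0.88 ± 0.246 (adjusted p = 0.0103, or 0.12 without S3, 0.184 without S8 and 0.0618 by DESeq2). Nearer the higher-coordinate end, chr5:122494795-122495198 had 1.31 and 0.578 CPM in control, 3.42 and 3.56 CPM at 4 hours, 2.46 and 2.8 CPM at 1 day and 2.83 and 1.98 CPM at 3 days, with rises of 1.92 ± 0.42 (adjusted p = 0.000209), 1.51 ± 0.427 (0.00596) and 1.40 ± 0.439 (0.0215). Without S2 the later rises were 1.00 and 0.89 and were not called (adjusted p = 0.197 and 0.328), and the 3-day call was also lost without S7 (0.224), with only the 2 groups (0.0503) and by DESeq2 (0.0726). Chosen after its values were seen, chr5:122481942-122482166 was also higher at all 3 times, by 1.28 ± 0.466, 1.46 ± 0.453 and 1.39 ± 0.465 (adjusted p = 0.0274, 0.0129 and 0.0318).

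Atp2a1, the SERCA1 pump of fast skeletal muscle, had no peak inside chr7:126445858-126463103 or assigned to it, and the nearest lay 4.39 kb away in Sh2b1. Ryr1, the release channel of skeletal muscle, had 6 peaks, 5 of them tested, and none on its start window. They summed to 15.5 and 14.3 CPM in control, 12.7 and 13.0 CPM at 4 hours, 13.3 and 13.7 CPM at 1 day and 13.6 and 12.9 CPM at 3 days, and with rosiglitazone to 16.9 and 17.2 CPM. No change of the sum was called (-0.21, -0.14, -0.16 and 0.19, adjusted p = 0.235, 0.425, 0.42 and 0.403). Its peak chr7:29042997-29043814 had 3.48 and 3.92 CPM at 4 hours, against 5.96 and 6.03 CPM in control, a fall of 0.69 ± 0.25 (adjusted p = 0.027) that was lost without any 1 of the 4 libraries (0.0603 to 0.154), with library size alone (0.0739) and by DESeq2 (0.0636). A further Ryr1 peak, chr7:29039675-29040305, was not called in any comparison with control (lowest adjusted p = 0.137).

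Ryr2, the release channel of heart and of beige fat, spans 553847 bp and had 14 peaks, of which 10 were tested. They summed to 36.3 and 30.6 CPM in control, 47.1 and 44.9 CPM at 4 hours, 45.0 and 36.8 CPM at 1 day and 36.9 and 37.0 CPM at 3 days. The rises were 0.46 ± 0.116 at 4 hours (adjusted p = 0.0047) and 0.29 ± 0.115 at 1 day (0.0497), and at 3 days 0.15 ± 0.118 was not called (0.398). With rosiglitazone the sum was 41.6 and 47.5 CPM, a rise of 0.42 ± 0.116 (adjusted p = 0.0343). The 4-hour call was lost without S2 (0.34, adjusted p = 0.112) or S3 (0.43, 0.0517) and the 1-day call without S2 (0.17, 0.42) or S5 (0.14, 0.462) and by DESeq2 (0.26, 0.099). The rosiglitazone call was lost without any 1 of its 4 libraries (0.29 to 0.54, adjusted p = 0.0552 to 0.364).

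Against control, rosiglitazone had 1 called peak at Ryr2, where forskolin had no call. Of the 4 member peaks called with rosiglitazone 2 were also called with forskolin, 3.7% of the member peaks, beside 4.09% of all peaks tested. Peak chr13:11781047-11781907, 325.5 kb into the gene, had 3.63 and 3.8 CPM in control, 7.43 and 7.43 CPM at 4 hours, 7.94 and 5.91 CPM at 1 day and 5.54 and 5.06 CPM at 3 days, and rose by 1.00 ± 0.246 at 4 hours (adjusted p = 0.00102) and 0.89 ± 0.245 at 1 day (0.00468, or 0.136 without S5). With rosiglitazone it had 3.72 and 4.81 CPM and was not called (0.20 ± 0.262, adjusted p = 0.723), and the difference between forskolin and rosiglitazone at 3 days was not called either (0.31 ± 0.239, adjusted p = 0.376). Peak chr13:11618529-11619040, 488.2 kb into the gene, had 12.9 and 13.8 CPM with rosiglitazone, against 8.18 and 6.28 CPM in control, a rise of 0.90 ± 0.193 (adjusted p = 0.00109, or 0.079 without S2). Under forskolin that peak had 6.25 to 9.36 CPM and no change was called (0.33, 0.01 and -0.10).

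Among the other named Ryr2 peaks, chr13:11566318-11566944, with the most reads, had 12.1 and 12.2 CPM at 4 hours, against 6.97 and 8.51 CPM in control, a rise of 0.64 ± 0.184 (adjusted p = 0.00475, or 0.0763 without S1). Peak chr13:11987669-11987912 had 1.96 and 1.99 CPM at 1 day, against 0.505 and 0.661 CPM in control, a rise of 1.73 ± 0.531 (adjusted p = 0.0117) that was lost without any 1 of the 4 libraries (0.0551 to 0.0806). The peak on the start window printed above, chr13:12106632-12107045, had 3.53 and 1.9 CPM in control and 2.05 to 2.74 CPM under forskolin, and was not called in any comparison. Restricted to that peak, the 4-hour and 1-day changes of Ryr2 were -0.19 (adjusted p = 0.688) and -0.04 (0.928). A peak 17953 bp upstream, chr13:12124898-12125435, chosen after its values were seen, was lower at 3 days by 0.82 ± 0.268 (adjusted p = 0.0288).

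**Figure D4:**
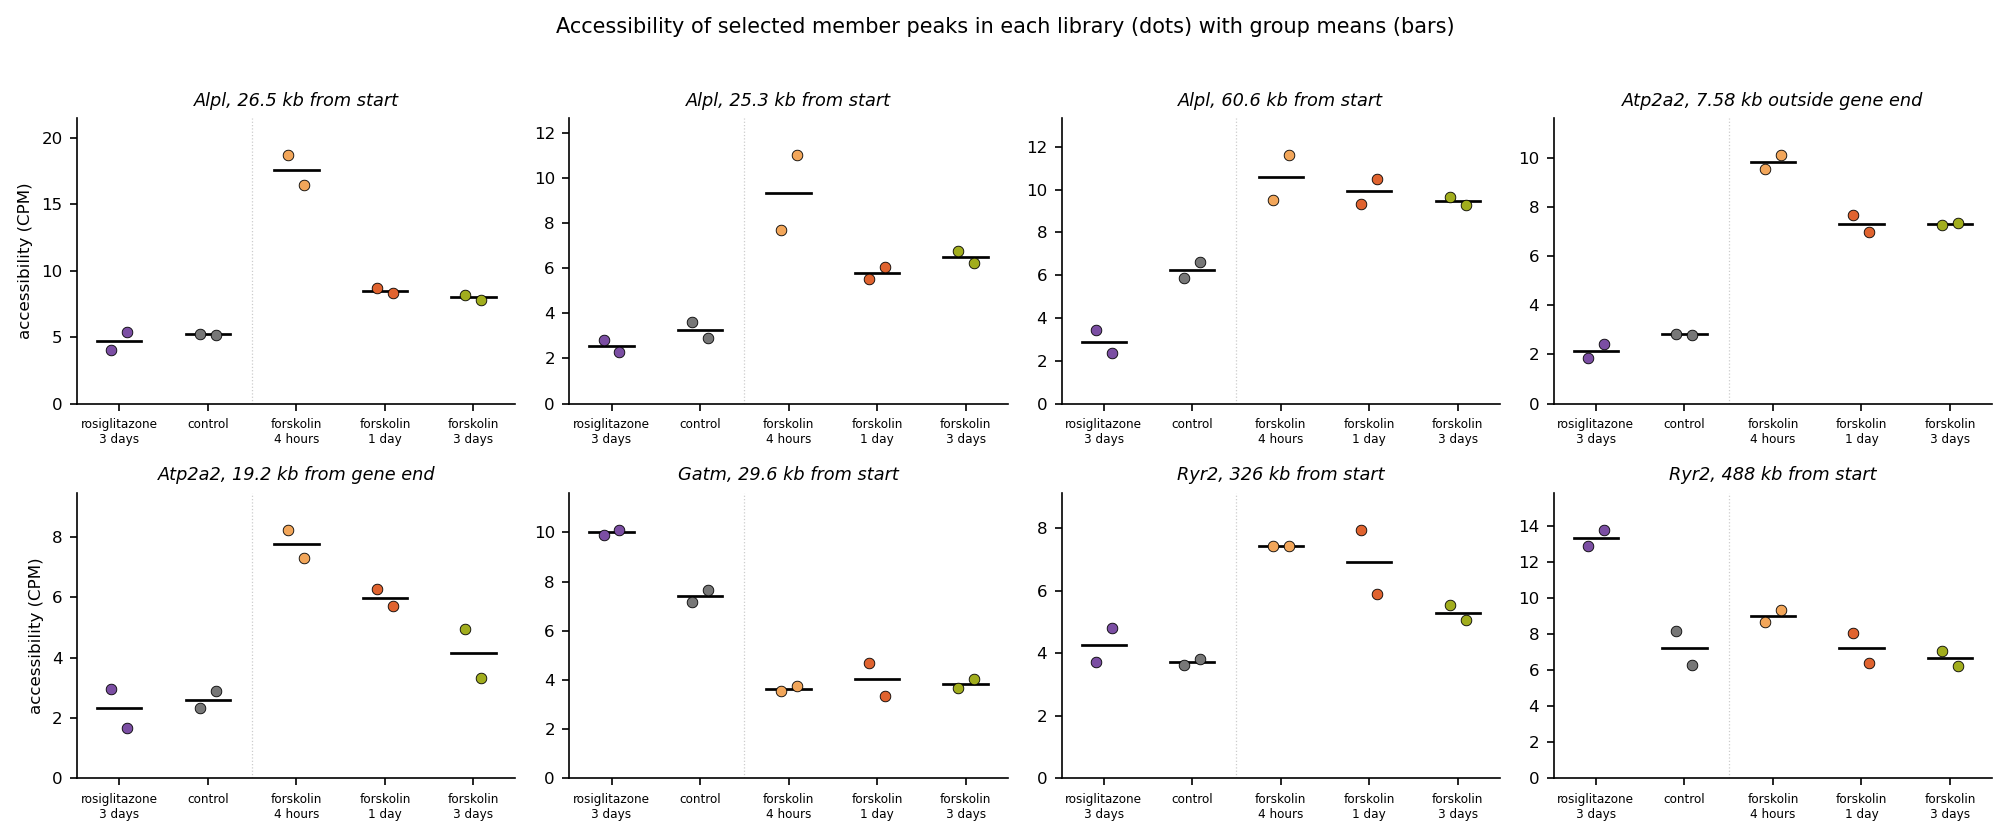
Accessibility in CPM (vertical axis from 0) of 8 member peaks by group; each dot is 1 library, each bar a group mean, and the titles give the distance of the peak centre. The Alpl peak at 26.5 kb reaches 18.7 and 16.5 CPM at 4 hours and lies at 7.83 to 8.72 CPM later, the Gatm peak is lower under forskolin, and the last Ryr2 panel is highest with rosiglitazone.

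Set directly against each other at 3 days, forskolin and rosiglitazone differed at 16 of the 54 member peaks (29.6%), 8 higher and 8 lower with forskolin, against 21.7% of all peaks tested (12.9% higher, 8.82% lower). Summed over peaks, 3 of the 8 member genes differed, against 15.4% of all genes (7.63% higher, 7.73% lower). Gatm was lower with forskolin (14.6 and 15.1 CPM) than with rosiglitazone (25.9 and 26.6 CPM), by 0.82 ± 0.123 on the log2 scale (adjusted p = 0.000113), and this held under all 11 alternatives. Within 10 kb or with all biotypes, however, Gatm keeps only its peak inside the gene, chr2:122599831-122600019, so a different site is measured there. That peak had 0.767 and 1.42 CPM with forskolin at 3 days and 3.17 and 2.84 CPM with rosiglitazone. In control it had 1.21 and 1.24 CPM. Alpl was higher, at 85.1 and 83.6 CPM with forskolin and 63.4 and 62.8 CPM with rosiglitazone (0.42 ± 0.0894, adjusted p = 0.00283). Atp2a2 was higher, at 155.2 and 176.6 CPM with forskolin and 127.7 and 138.0 CPM with rosiglitazone (0.32 ± 0.0736, adjusted p = 0.00521, or 0.0693 without S9 and 0.112 with noncoding genes in the assignment). In each of these genes both libraries of one treatment lay beyond both of the other. The same held at Ckb, Gamt, Ryr1 and Ryr2, which were not called. The share of all genes with such a gap was not counted.

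Single peaks differed in both directions, also within a gene. The Atp2a2 peak at chr5:122509646-122509968 had 7.26 and 7.36 CPM with forskolin and 1.86 and 2.41 CPM with rosiglitazone (1.77 ± 0.248, adjusted p = 4.49e-08). The Alpl peak at chr4:137735557-137736091 had 9.67 and 9.26 CPM with forskolin and 3.44 and 2.35 CPM with rosiglitazone (1.72 ± 0.222, adjusted p = 4.36e-09). Against the sum of Alpl, its peak chr4:137794250-137794537 averaged 2.09 CPM with forskolin and 4.27 CPM with rosiglitazone (-1.04 ± 0.325, adjusted p = 0.014). Chosen after its values were seen, chr5:122474934-122475594 at Atp2a2 averaged 1.64 CPM with forskolin and 3.91 CPM with rosiglitazone (-1.28 ± 0.382, 0.00953). Its libraries had 1.3 and 1.98 CPM with forskolin, 2.82 and 5.0 CPM with rosiglitazone and 2.02 and 3.47 CPM in control. The Gatm peak at chr2:122581255-122582058 had 3.66 and 4.04 CPM with forskolin and 9.91 and 10.1 CPM with rosiglitazone (-1.39 ± 0.226, adjusted p = 1.76e-06). The Gatm peak chr2:122572315-122572683, chosen after its values were seen, averaged 3.2 CPM with forskolin and 1.71 CPM with rosiglitazone (0.92 ± 0.329, 0.0346). The summed levels of Ryr2 and Ryr1 were not called between the treatments (-0.27, adjusted p = 0.106, and -0.36, 0.0712). The Ryr2 peak at chr13:11618529-11619040 had 7.08 and 6.25 CPM with forskolin and 12.9 and 13.8 CPM with rosiglitazone (-1.0 ± 0.186, adjusted p = 2.68e-05). The Ryr1 peak at chr7:29042997-29043814 had 5.07 and 4.11 CPM with forskolin and 7.29 and 7.84 CPM with rosiglitazone (-0.71 ± 0.231, adjusted p = 0.0187, lost without S8, S9 or S10 at 0.0694 to 0.138 and by DESeq2 at 0.0601).

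At the level of genes, forskolin gave calls for 4 of 8 members at 4 hours (Alpl and Ryr2 higher, Gatm and Gamt lower), beside 35.1% of all genes (11.1% higher, 24.0% lower). At 1 day 4 were called (Ryr2 higher, and Gatm, Gamt and Atp2a2 lower), beside 39.3% of all genes (8.58% higher, 30.8% lower), and with library size alone 2 were higher and 1 lower. At 3 days 2 were called (Gatm and Gamt lower), beside 15.1% (4.68% higher, 10.4% lower), and rosiglitazone gave 2 (Ryr2 higher, Atp2a2 lower), beside 6.68% (1.99% higher, 4.7% lower). Across the forskolin times, 5 member peaks differed between 1 day and 4 hours (5.57% of all peaks did) and 6 between 3 days and 4 hours (11.1% of all). Between 3 days and 1 day 0 member peaks differed by edgeR, beside 0.187% of all peaks, and 0 by DESeq2. At an unadjusted p below 0.05 there were 4 of the 54. No member gene was called between forskolin times by edgeR, beside 4.66%, 7.69% and 0.0115% of all genes, and 1, 3 and 2 had an unadjusted p below 0.05 for 1 day against 4 hours, 3 days against 4 hours and 3 days against 1 day. DESeq2 called 1, 0 and 0 there. The shares of all peaks and of all genes at an unadjusted p were not counted. All contrasts with control share the control libraries.

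Other genes of the 2 pathways were listed as neighbours of the cycles: 61 in all, 58 with tested peaks (Ckmt1 and Hrc had no peak and Arln was not in the annotation). At 4 hours 7 were higher and 17 lower (12.1% and 29.3%, beside 11.1% and 24.0% of all genes) and at 1 day 4 and 15 (6.9% and 25.9%, beside 8.58% and 30.8%). At 3 days 5 were higher and 3 lower (8.62% and 5.17%, beside 4.68% and 10.4%), and with rosiglitazone 1 and 2 (1.72% and 3.45%, beside 1.99% and 4.7%). Their median changes were -0.09, -0.12, -0.07 and -0.08, beside the medians over all genes given above. Of the 9 tested creatine partners 0 were higher and 2, 4, 0 and 0 lower at these contrasts (22.2%, 44.4%, 0 and 0). Ak1, which like creatine kinase buffers ATP, fell by 0.42 ± 0.0916 at 4 hours (adjusted p = 0.00168) and 0.33 ± 0.0905 at 1 day (0.00758). Phospho1, a phosphatase, fell by 0.30 ± 0.0917 at 1 day (0.013).

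Among release channels and store proteins 3, 2, 3 and 0 of 17 were higher (17.6%, 11.8%, 17.6% and 0, beside 11.1%, 8.58%, 4.68% and 1.99% of all genes) and 5, 3, 1 and 0 lower (29.4%, 17.6%, 5.88% and 0, beside 24.0%, 30.8%, 10.4% and 4.7%). The genes named here were called in at least 1 contrast. Casq2, a calcium-binding protein of the store, averaged 65.9 CPM at 4 hours, 70.6 CPM at 1 day and 67.1 CPM at 3 days, against 44.3 CPM in control, with rises of 0.57 ± 0.0934, 0.67 ± 0.0925 and 0.60 ± 0.0937 (adjusted p = 0.000123, 4.5e-05 and 0.000384). Itpr1, the inositol trisphosphate receptor that also releases store calcium, rose by 0.26 ± 0.0533, 0.35 ± 0.0532 and 0.26 ± 0.0534 (adjusted p = 0.00104, 9.9e-05 and 0.00402). Calr, another store protein that binds calcium, fell by 0.30 ± 0.0859, 0.47 ± 0.0858 and 0.29 ± 0.0862 (adjusted p = 0.0121, 0.000423 and 0.028). Casq1 and Trdn fell at 4 hours, by 0.41 ± 0.146 (0.0336) and 0.76 ± 0.191 (0.00508). Of the pump's relatives and small regulators 0, 1, 1 and 1 of 5 were higher and none lower. Atp2a3, the SERCA3 pump, rose by 0.37 ± 0.108 at 1 day (adjusted p = 0.0111) and 0.42 ± 0.109 at 3 days (0.0152), and Mrln, a micropeptide that inhibits SERCA in muscle, rose by 0.53 ± 0.146 with rosiglitazone (0.0339).

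Of 27 genes of calcium entry, export and mitochondrial uptake 4, 1, 1 and 0 were higher (14.8%, 3.7%, 3.7% and 0) and 10, 8, 2 and 2 lower (37.0%, 29.6%, 7.41% and 7.41%), to be read beside the shares of all genes in the sentence on release channels. Atp2b1, a pump that exports calcium across the plasma membrane, averaged 238.3 CPM at 4 hours, 212.2 CPM at 1 day, 239.7 CPM at 3 days and 214.9 CPM with rosiglitazone, against 284.8 CPM in control, and was called lower in all 4 contrasts (-0.26, -0.42, -0.25 and -0.41, adjusted p = 0.0173, 0.000553, 0.0391 and 0.0043). Camk2g, a kinase switched on by calcium, fell by 0.34, 0.35 and 0.35 at the 3 forskolin times (adjusted p = 0.00215, 0.00168 and 0.00628). Slc8a3, a sodium-calcium exchanger, rose by 0.39 ± 0.132 at 4 hours (0.0279) and 0.47 ± 0.132 at 3 days (0.0222). At 4 hours Slc8a1 rose by 0.31 ± 0.0782 (0.00524) and Slc8a2 fell by 0.82 ± 0.246 (0.0146). Orai2, a channel of store-operated entry, fell by 0.47 ± 0.0898 with rosiglitazone (0.00356).

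Markers of adipocytes and of other cell types were summed in the same way. Of 12 muscle markers 10 had peaks, with none at Myod1 and Myf5, and the list summed to 172.9 and 177.1 CPM at 4 hours, 157.5 and 158.3 CPM at 1 day, 164.0 and 171.9 CPM at 3 days and 184.6 and 185.7 CPM with rosiglitazone, against 186.8 and 197.2 CPM in control. In these 4 contrasts 0, 1, 0 and 1 of the 10 muscle markers were called higher and 1, 1, 1 and 0 lower. Higher calls made up 0, 10.0%, 0 and 10.0%, beside 11.1%, 8.58%, 4.68% and 1.99% of all genes. Lower calls made up 10.0%, 10.0%, 10.0% and 0, beside 24.0%, 30.8%, 10.4% and 4.7% of all genes. The adipocyte list summed to 953.2 and 1017.7 CPM at 4 hours, 877.0 and 885.5 CPM at 1 day, 905.2 and 954.3 CPM at 3 days and 1232.0 and 1250.8 CPM with rosiglitazone, against 998.1 and 1095.1 CPM in control. Of its 10 genes 2, 0, 0 and 3 were called higher and 3, 6, 4 and 1 lower. With rosiglitazone Fabp4 averaged 323.0 CPM, against 141.9 CPM in control, and Cd36 119.3 CPM, against 62.4 CPM in control, while Cebpa was lower (132.7 CPM, against 169.3 CPM in control, adjusted p = 0.0147). The 5 macrophage markers with peaks (none at Adgre1) summed to 93.1 and 93.4, 77.2 and 83.7, 82.4 and 82.7, and 90.2 and 91.7 CPM in that order, against 66.8 and 72.2 CPM in control, and 2, 1, 1 and 2 of them were called higher. The progenitor list ran from 274.1 to 318.0 CPM, the endothelial list from 122.1 to 158.7 CPM and the neural list from 131.4 to 155.9 CPM over all libraries. The part of these shifts in the results on member genes was not tested.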

How the data were processed

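The deposited table gives read counts per peak in 10 ATAC-seq libraries, whole numbers that the authors had not normalized; the submitters' processing notes name Bowtie2 with SAMtools, fastp, Picard, featureCounts, MACS2 and deepTools, and the builds GRCm38 and mm10. The treatment of duplicates, any shift for the transposase and whether peaks were called on pooled libraries are not given in the sources used here. Library columns were matched to groups by name; the counts limit the precision as the standard errors show.

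Peaks were tested in edgeR 4.0.16 (limma 3.58.1, R 4.3.3) with TMM scaling, the default filter on low counts (118954 of 122984 peaks kept) and the robust quasi-likelihood test, in 1 fit over all 10 libraries, and p-values were adjusted by Benjamini-Hochberg over all tested peaks. Genes were tested the same way on counts summed over their peaks (17461 of 17574 genes). The standard error is the log2 fold change divided by the square root of F. The steps were tested on simulated data. CPM values use TMM library sizes.

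Alternatives were library size alone, offsets from a loess trend over abundance, DESeq2 1.42.0, no filter, only the 2 groups compared, each library left out, assignment within 10 kb, promoter peaks only and, chosen after seeing the data, genes of all biotypes in the assignment. For genes without a start window, among them Atp2a2 and Slc6a8, peaks within 1 kb of either gene end stood in for promoter peaks. Each gene was named with its summed level and promoter peak, and with the 2 peaks of smallest adjusted p against control (4 for Ryr2 and Atp2a2) and the peak of highest level. Members and lists were chosen with earlier results of these data known.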

Additional observations from a re-analysis of the deposited data

Results flagged for a closer look

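These differences between treatments, or between times of forskolin, passed the test of the difference itself (edgeR, Benjamini-Hochberg adjustment over all peaks or genes). Between forskolin and rosiglitazone at 3 days, summed accessibility differed by 0.42 (log2) at Alpl, 0.32 at Atp2a2 and -0.82 at Gatm. Among peaks, the differences between forskolin and rosiglitazone were 0.76 at chr4:137769617-137770166 and 1.36 at chr4:137770876-137771361 of Alpl, 0.87 at chr5:122482751-122483282 and 1.77 at chr5:122509646-122509968 of Atp2a2, -1.39 at chr2:122581255-122582058 of Gatm, -0.71 at chr7:29042997-29043814 of Ryr1 and -1.0 at chr13:11618529-11619040 of Ryr2. The Alpl value of 0.76 was not called without S9 (0.61, adjusted p = 0.0784). The Atp2a2 value of 0.87 was not called without S7 (0.54, adjusted p = 0.351) or S10 (0.50, 0.352), nor by DESeq2 (0.86, 0.076), and the Ryr1 value was not called by DESeq2 either (-0.71, 0.0601).

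Between times of forskolin, the first Alpl peak differed by -1.05 at 1 day against 4 hours and by -1.13 at 3 days against 4 hours, and the second by -0.69 at 1 day against 4 hours. The Atp2a2 peak chr5:122482751-122483282 differed by -0.88 between 3 days and 4 hours. The Slc6a8 peak chrX:73682081-73682423 differed by 0.93 between 1 day and 4 hours and by 1.43 between 3 days and 4 hours. The value of 0.93 was not called by DESeq2 (0.91, adjusted p = 0.151). Neither were the Alpl value of -0.69 (-0.71, 0.136) and the Atp2a2 value of -0.88 (-0.9, 0.0618). Without S3 the Slc6a8 values were 0.6 and 1.1. The Alpl value was -0.41 without S4 and the Atp2a2 value -0.65 without S8. Calls that ended without 1 library are given with each peak above.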

How the results depend on the processing

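Of 62 calls on named genes and peaks, 19 held under every alternative run and 40 under every change of scaling, filter, tool or samples fitted that keeps both groups whole. Directions turned for the 4-hour change of Gatm (0.18 within 10 kb and with all biotypes), where the distal peaks leave the gene. With promoter peaks only they turned for Alpl at 4 hours (-0.08) and Ryr2 at 4 hours (-0.19) and 1 day (-0.04). There each gene is left with the 1 peak on its start window, and the value is that of this peak. With trended offsets the Gamt peak turned at 1 day (0.04), and the cause was not tested. None of these turned changes was called. Of the 14 peaks called at 3 days, 9 stayed assigned to members with all biotypes, a setting in which the fit of peaks is unchanged. With only the 2 groups 7 of the 14 were called, and by DESeq2 4. DESeq2 called 10 peaks for forskolin against rosiglitazone and 1 for 1 day against 4 hours. With promoter peaks only, 5 member genes were tested, and Atp2a2, which has no start window, stood with its peak at a gene end. In that setting 2 genes were called at 4 hours (Gamt, and Atp2a2, which was not called there otherwise), 2 at 1 day (Gamt and Atp2a2) and 0 in the 3-day, rosiglitazone and forskolin-rosiglitazone contrasts. At 3 days 1 gene was called within 10 kb, with all biotypes or with only the 2 groups. Between 1 day and 4 hours 1 gene was called with library size alone, trended offsets, only the 2 groups or DESeq2, and between 3 days and 4 hours 1 with library size alone or trended offsets.

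Without 1 library, peak counts ran from 15 to 18 at 4 hours, 9 to 14 at 1 day, 5 to 9 at 3 days, 2 to 3 with rosiglitazone and 9 to 17 for forskolin against rosiglitazone; between times they ran from 1 to 3 (1 day against 4 hours), 2 to 7 (3 days against 4 hours) and 0 to 1 (3 days against 1 day). Gene counts ran from 3 to 4, 1 to 5, 0 to 3, 0 to 1 and 2 to 4 in the first 5 contrasts and 0 to 0, 0 to 2 and 0 to 2 between times. A group left with 1 library was assumed to vary like the others. No paired analysis was possible because the columns of the table carry library numbers and not the replicate numbers of the labels. With 2 libraries a group, changes that were small beside their standard errors could be missed at this depth.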
